A study of Mus musculus with 4 samples.

Results

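The elements described here are the minor names of the intracisternal A-particle (IAP) family, an endogenous retrovirus of the mouse. They were chosen by name alone, as all listed LTR loci whose RepeatMasker name begins with IAP but not with IAPLTR1 or IAPLTR2. Of 6216 LTR loci listed in the study, 301 carry such a name. The 18 loci on chromosomes X and Y and the 17 on unplaced parts of those chromosomes were left out, and 266 loci of 5 names remained. These were 69 loci named IAPEY_LTR, 77 named IAPEY2_LTR, 55 named IAPEY3_LTR, 18 named IAPLTR3 and 47 named IAPLTR4. The other IAP loci outside X and Y were 633 of IAPLTR1_Mm, 736 of IAPLTR1a_Mm and 687 of the IAPLTR2 group.

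RNA was sequenced from adult tail-tip fibroblasts and from whole E13.5 embryos, all of strain C57BL/6J, and in each tissue a WT library was set against an Lsh-/- library. Lsh, annotated as Hells, is a SNF2-type chromatin remodelling ATPase needed for normal DNA methylation, and the comparison asks which repeats are transcribed without it. The fibroblasts had been transformed with SV40, which all fibroblast libraries share, and an embryo library holds RNA of every tissue of the embryo, so that fewer cells that transcribe an element and less RNA per cell cannot be told apart. The labels do not say whether a library holds 1 animal or a pool. Each of the 4 groups was 1 library, so no difference below was tested, and all 95% intervals are exact (Clopper-Pearson) and cover counting error only.

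An IAP element is a provirus with a long terminal repeat (LTR) at either end, and the left LTR holds the promoter from which the element is transcribed. The LTRs are identical when an element inserts and then gather separate mutations, so their identity falls with age. Between the left LTR and the coding part lies the primer binding site, where a host tRNA anneals to start reverse transcription. IAP elements are held silent in most tissues by DNA methylation of their CpG-rich LTRs and by repressive chromatin.

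The primer binding site of the locus with the most counts in Lsh-/- fibroblasts is shown for each name. An IAPLTR1_Mm locus chosen in the same way is added for comparison. Each line gives 30 bases of the mouse genome (mm9), 5′ to 3′ along the element, from the last bases of the left LTR on, and capitals mark the first 9 bases that begin with TGG after the LTR.
IAPEY_LTR (chr9:93218740-93218769, plus strand): acgcaataagTGGCGCCGAagaaacccggg
IAPEY2_LTR (chr4:145047232-145047261, plus strand): tcgggatgagTGGCGCCGAgaaacccagga
IAPEY3_LTR (chr15:96413470-96413499, minus strand): ttgtaagagtTGGTGCCGAaacccgggacg
IAPLTR3 (chr3:28774549-28774578, plus strand): gcaggtcatcTGGTGCTGGaaacccaggat
IAPLTR4 (chr2:85798562-85798591, plus strand): caggaacatcTGGTGCCGAagatcccggga
IAPLTR1_Mm (chr3:73537447-73537476, plus strand): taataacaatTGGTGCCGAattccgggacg

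Of the IAPEY_LTR loci, 65.2% held TGGCGCCGA on either strand anywhere in the element and 17.4% held TGGTGCCGA. Among all 5730 LTR loci placed in the genome outside X and Y, 2.04% held the first motif and 35.6% the second. The second was the usual form among IAPLTR1_Mm loci, of which 95.1% held it and 1.42% the first. IAPEY2_LTR loci held the first motif in 27.3% and the second in 14.3%, IAPEY3_LTR loci in 9.09% and 27.3%, and IAPLTR4 loci in 4.35% and 39.1%. No IAPLTR3 locus of 18 held either, and the IAPLTR3 locus shown reads TGGTGCTGG at this place. The first motif was searched after the sequences had been seen.

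The names also differed in the CpG content of their LTRs. The first 300 bases of 4 loci are shown with each CpG in capitals, which are 3 loci that rose strongly in Lsh-/- fibroblasts and, last, the IAPLTR4 locus with the most counts in WT embryos.
IAPEY_LTR (chr9:93218364-93218663, plus strand): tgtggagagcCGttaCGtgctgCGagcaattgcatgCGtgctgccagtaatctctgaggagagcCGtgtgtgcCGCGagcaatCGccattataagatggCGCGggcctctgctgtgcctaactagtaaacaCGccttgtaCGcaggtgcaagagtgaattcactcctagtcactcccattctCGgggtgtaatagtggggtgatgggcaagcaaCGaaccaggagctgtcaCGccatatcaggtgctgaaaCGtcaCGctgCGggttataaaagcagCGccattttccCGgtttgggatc
IAPLTR3 (chr3:28774261-28774560, plus strand): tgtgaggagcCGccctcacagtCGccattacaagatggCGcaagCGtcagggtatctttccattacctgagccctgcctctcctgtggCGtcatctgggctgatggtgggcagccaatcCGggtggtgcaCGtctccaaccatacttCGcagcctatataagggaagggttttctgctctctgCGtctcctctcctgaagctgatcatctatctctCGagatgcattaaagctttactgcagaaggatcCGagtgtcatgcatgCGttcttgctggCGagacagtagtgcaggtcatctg
IAPLTR4 (chr2:85798220-85798519, plus strand): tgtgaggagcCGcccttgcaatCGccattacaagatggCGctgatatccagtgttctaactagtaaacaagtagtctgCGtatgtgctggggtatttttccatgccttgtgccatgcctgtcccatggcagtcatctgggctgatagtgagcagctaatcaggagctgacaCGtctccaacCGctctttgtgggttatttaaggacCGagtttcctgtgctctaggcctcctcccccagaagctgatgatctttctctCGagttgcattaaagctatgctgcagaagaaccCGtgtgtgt
IAPLTR4 (chr13:12918063-12918362, plus strand): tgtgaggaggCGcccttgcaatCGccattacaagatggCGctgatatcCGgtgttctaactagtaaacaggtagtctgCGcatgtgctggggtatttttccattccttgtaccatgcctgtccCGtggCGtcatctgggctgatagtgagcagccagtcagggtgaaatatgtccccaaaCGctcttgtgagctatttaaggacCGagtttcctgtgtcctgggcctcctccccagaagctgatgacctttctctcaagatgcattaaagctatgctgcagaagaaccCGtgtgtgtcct

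The IAPEY_LTR start holds 20 CpGs, the IAPLTR3 start 13 and the IAPLTR4 starts 9 and 10. Over all loci that begin with TG, the median was 19.5 CpGs in 300 bases for IAPEY_LTR (8 to 23, n = 62 loci) and 8 for IAPLTR4 (2 to 11, n = 38). IAPLTR3 had a median of 13 (n = 16), IAPEY2_LTR of 14 (n = 46), IAPEY3_LTR of 11 (n = 47), and IAPLTR1_Mm of 15 (n = 628). By the median IAPEY_LTR thus had the CpG-richest start and IAPLTR4 the poorest among the 5 names.

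The deposited tables held between 19216257 and 33904311 counts a library, and TMM scaling over intervals beside LINE-1 loci gave effective sizes between 19481559 and 27051956. Counts over exons 11 and 12 of Hells were 937 in WT and 0 in Lsh-/- fibroblasts, and 427 and 0 in the embryos, which matches the labels. Neither the labels nor the paper's text names the deleted exons, and intervals over exon 13 were left out. The 10 intervals over Hells exons outside 11 to 13 held 5784 and 6132 counts in fibroblasts and 2187 and 2014 in embryos. Of 8 fibroblast markers with an interval over an exon, 7 had counts in both fibroblast libraries, while Lum was at 0 in both. Their summed counts were 67101 in WT and 47905 in Lsh-/- fibroblasts, and 286985 and 262864 in the embryos. Between the fibroblast libraries Postn went from 1778 to 309 and Pdgfra from 159 to 72, while Col3a1 went from 684 to 1550 and Fn1 from 6530 to 8890. Of 11 markers of other embryonic cell types, 3 had counts in WT and 6 in Lsh-/- fibroblasts, with summed counts of 635 and 749. In embryos 11 and 10 of these were above 0, with 3105 and 2619 counts. Between the fibroblast libraries Tnnt2, a cardiac troponin, went from 8 to 328 counts and Stmn2, a neuronal stathmin, from 2 to 130, while Tubb3, a neuronal tubulin, went from 625 to 268. In embryos Afp and Alb, made by liver cells, went from 478 to 51 and from 70 to 12. The part of such differences in the results below was not tested.

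Summed over all 266 loci, the minor IAP elements went from 281 to 5344 counts between WT and Lsh-/- fibroblasts. In counts per 1000000 of the scaled library size (CPM) this was 14.4 and 266, an 18.4-fold rise (95% interval 16.3 to 20.8). In embryos the sums were 1367 and 2760, or 50.5 and 106 CPM, a 2.10-fold rise (1.96 to 2.24). The elements were therefore higher in the Lsh-/- library of both tissues, with a larger ratio in the fibroblasts, where the WT level was lower. The size of the fibroblast ratio depends on the scaling, with a log2 value of 4.20 here, 2.88 when each library is scaled by its own LTR counts and 4.88 when it is scaled by all its counts. Counts were listed at 53 of the loci in WT fibroblasts and at 199 in Lsh-/- fibroblasts, and at 85 and 159 in the embryos.

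**Figure D1:**
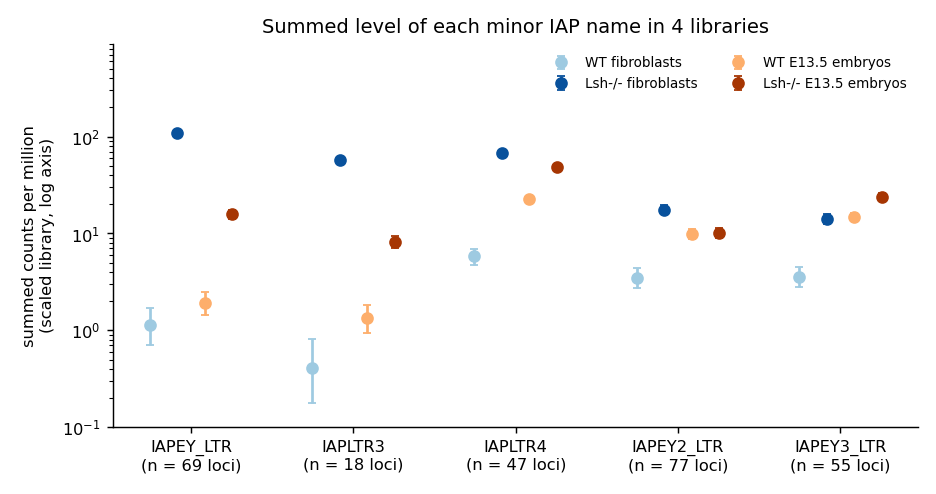
Summed CPM (log axis) for each of the 5 names in the 4 libraries, with exact Poisson 95% intervals for counting error. The Lsh-/- fibroblast point lies far above the WT one for IAPEY_LTR (109 against 1.13) and IAPLTR3 (57.7 against 0.411), while the IAPEY2_LTR points of the embryos (9.87 and 10.1) overlap.

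At single loci a log2 ratio of Lsh-/- over WT was computed with a small prior count added, for loci whose WT and Lsh-/- counts sum to 10 or more. In fibroblasts 74 minor IAP loci reached this minimum, and 69 of them (93.2%) were above 1, beside 77.5% of all 1958 LTR loci that did. Above 5 were 62 (83.8%), beside 59.7% of all. The only locus below −1 was an IAPEY3_LTR locus, beside 4.75% of all LTR loci. Of the 740 non-IAP LTR loci 46.5% were above 1, of the 448 IAPLTR1_Mm loci 97.1% and of the 217 IAPLTR2 group loci 91.2%. A locus silent in WT reaches the minimum only through its Lsh-/- counts, so these shares describe the loci that could be measured and not all members.

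In embryos 64 minor IAP loci reached it and 39 (60.9%) were above 1, beside 50.2% of all 1688 LTR loci. Above 5 were 31 (48.4%) against 26.4% of all, and below −1 were 5 against 12.0% of all. The share above 1 was higher than the 26.6% of 1016 non-IAP LTR loci, and lower than the 89.0% of 237 IAPLTR1_Mm and the 93.0% of 257 IAPLTR1a_Mm loci. It was also lower than the 77.2% of 114 IAPLTR2 group loci. Of the 1688 LTR loci 672 were themselves IAP loci. The median log2 ratio of the minor IAP loci was 7.84 in fibroblasts and 3.64 in embryos. At 58 and 29 of these loci the WT library had no count, and with such loci set to a floor of 3 WT counts the medians were 3.28 and 1.79.

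**Figure D2:**
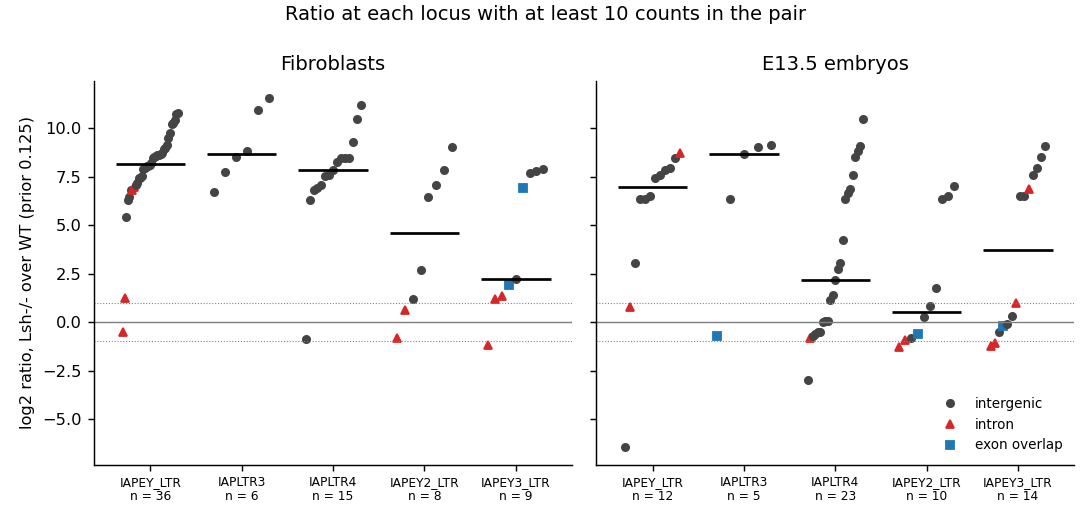
Log2 ratio of Lsh-/- over WT (vertical axis) at every minor IAP locus with 10 or more counts over both libraries of the tissue, by name, in fibroblasts (left) and embryos (right), with intergenic loci as circles, intronic ones as triangles and loci over exons as squares. Horizontal bars are medians and dotted lines mark 1 and −1, and in fibroblasts 62 of the 63 intergenic loci lie above 1.

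IAPEY_LTR made up the largest share of the Lsh-/- fibroblast counts. Its 69 loci together went from 22 WT to 2184 Lsh-/- counts in fibroblasts, a 96.1-fold rise (63.3 to 154), and 52 and 409 in the embryos, an 8.17-fold rise (6.11 to 11.1). Without the intronic locus in Galk2 described below, the embryo log2 ratio went from 3.03 to 3.87. Listed loci went from 7 in WT to 64 in Lsh-/- fibroblasts, 92.8% of the 69. A locus is among the 69 only because some library listed it, so this is not a share of all copies in the genome. In Lsh-/- fibroblasts 613 of the 633 IAPLTR1_Mm loci and 4159 of the 5743 LTR loci outside X and Y were listed. Of the 36 IAPEY_LTR loci with 10 or more counts in the fibroblast pair, 35 were above 1 and 34 above 5, and 33 had no WT count.

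The signal came from many IAPEY_LTR copies, but unevenly. The locus with the most counts held 10.3% of the sum in Lsh-/- fibroblasts and the first 5 held 42.2%. In the names with more loci the first 5 held less, 17.7% for IAPLTR1_Mm, 13.2% for IAPLTR1a_Mm and 30.9% for the IAPLTR2 group. The top IAPEY_LTR locus is an intergenic element of 4167 bases at chr9:93218364-93222530. It had 0 WT and 224 Lsh-/- counts in fibroblasts, at least 72.3-fold higher. It had 0 and 28 counts in the embryos, at least 9.69-fold higher. Its LTRs are 99.7% identical.

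The next, at chr12:94777019-94781184, had 0 and 218 counts in fibroblasts, at least 70.4-fold higher, but 0 in both embryo libraries. It was therefore read in 1 of the 4 libraries only. Of the 14 IAPEY_LTR loci with 50 or more counts in Lsh-/- fibroblasts, all were intergenic and at 0 in WT fibroblasts. Their counts ran from 50 to 224 with a median of 81. In Lsh-/- embryos the same loci ran from 0 to 28 with a median of 5.5, and 4 were at 0. Of all 618 LTR loci outside X and Y with 50 or more counts in Lsh-/- fibroblasts, 34 were at 0 in Lsh-/- embryos. The 14 loci were chosen for their fibroblast counts, and the locus on chromosome 9 had the highest Lsh-/- count of the 14 in both tissues.

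The 10 loci of this name inside genes had a lower summed ratio, but not every one of them did. Of 4 with 10 or more counts in the fibroblast pair, 3 were above 1. The element in an intron of Nlrp9c, of the NLR family, at chr7:27116327-27120740 in the sense direction, had 0 and 16 counts in fibroblasts and 0 and 51 in embryos. The one in an intron of Galk2, a galactokinase-family gene, at chr2:125782910-125787450 and antisense to it, had 6 and 15 counts in fibroblasts and 26 and 43 in embryos. The Galk2 locus held 26 of the 52 IAPEY_LTR counts in WT embryos and 83.9% of those at the intronic loci. The embryo log2 ratio of the intronic loci, 1.93 (1.35 to 2.56), thus has most of its WT counts from it. The 59 intergenic loci had 4 WT and 2122 Lsh-/- counts in fibroblasts, a log2 ratio of 9.0 (7.65 to 10.88), against 1.74 (0.96 to 2.58) for the 10 intronic ones. Both loci were chosen after their values had been seen.

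IAPLTR3 had few copies and 3 of them gave nearly all the signal. The 18 loci rose from 8 to 1160 counts in fibroblasts, 140-fold (71.0 to 326), and from 36 to 212 in embryos, 6.11-fold (4.28 to 8.97). At chr3:28774261-28782430 the counts were 1 in WT and 417 in Lsh-/- fibroblasts, and 0 and 49 in embryos. At chr14:20447568-20455764 they were 0 and 376 in fibroblasts, at least 121-fold higher, and 0 and 65 in embryos, at least 22.5-fold higher.

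The third, at chr8:69892284-69900161, had 0 and 250 counts in fibroblasts, at least 80.7-fold higher, and 0 and 68 in embryos, at least 23.5-fold higher. A second IAPLTR3 entry, with 27 counts in Lsh-/- fibroblasts and 10 in Lsh-/- embryos, overlaps its end, and whether reads were counted in both was not tested. The 3 loci, each close to 8 kb wide and intergenic, held 89.9% of the IAPLTR3 counts in Lsh-/- fibroblasts and 85.8% in Lsh-/- embryos, and their only WT count was the 1 on chromosome 3. They were at or near 0 in both WT libraries and high in both Lsh-/- libraries.

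The WT counts of IAPLTR3 came mostly from 1 short element of 557 bases over an exon of Txndc11 (a thioredoxin-domain gene) and antisense to it, at chr16:11106158-11106714. It had 6 and 3 counts in fibroblasts and 27 and 16 in embryos, a log2 ratio of −0.70 (−1.69 to 0.24) in the latter. Without it the summed log2 ratio of IAPLTR3 went from 7.13 to 9.13 in fibroblasts and from 2.61 to 4.5 in embryos.

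IAPLTR4 differed from both in its WT level. Its 47 loci went from 113 to 1360 counts in fibroblasts, 11.7-fold (9.61 to 14.2), and 610 and 1252 in embryos, 2.13-fold (1.93 to 2.35). A single intergenic locus at chr13:12918063-12924224 held 85.8% of the WT fibroblast counts and 77% of the WT embryo counts. Its own counts were 97 and 55 in fibroblasts, a log2 ratio of −0.86 (−1.37 to −0.37), and 470 and 460 in embryos, a ratio of 0.02 (−0.17 to 0.21). This locus was read in all 4 libraries, and its fibroblast ratio lay below 0 under each scaling, from −2.18 with LTR counts to −0.19 with all counts. Its LTRs are 86.9% identical. Without it the summed log2 ratio of IAPLTR4 in embryos was 2.55 instead of 1.09.

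Other IAPLTR4 loci were at or near 0 in WT fibroblasts and rose. At chr2:85798220-85805185, which lies 6024 bases from the olfactory receptor gene Olfr1028 and overlaps a listed entry named L3, the counts were 1 and 358 in fibroblasts and 13 and 83 in embryos, a log2 ratio of 8.27 (5.95 to 13.75) in the first and 2.72 (1.88 to 3.70) in the second. At chr7:50228031-50236458 they were 0 and 301, at least 97.2-fold higher, and 8 and 35, a ratio of 2.17 (1.05 to 3.50). At chr13:62038700-62045635 they were 0 and 181, at least 58.4-fold higher, and 1 and 108, a ratio of 6.64 (4.30 to 12.13). These loci rose in both tissues, and the first and second already had counts in WT embryos.

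The IAPLTR4 locus at chr10:78875652-78880773 showed the reverse order of the tissues. It had 0 and 23 counts in fibroblasts, at least 7.42-fold higher, and 0 and 173 in embryos, at least 59.9-fold higher. This was the largest count in Lsh-/- embryos of any member with no count in WT embryos. Altogether 14 of 15 IAPLTR4 loci with enough counts were above 1 in fibroblasts and 14 of 23 in embryos, where 8 lay within 1 of 0 and 1 was below −1.

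IAPEY2_LTR and IAPEY3_LTR had the lower ratios in both tissues and the lowest levels in Lsh-/- fibroblasts, 17.6 and 14.2 CPM. In the WT libraries both lay above IAPEY_LTR and IAPLTR3, with 3.49 and 3.59 CPM in fibroblasts and 9.87 and 14.9 in embryos. The 77 IAPEY2_LTR loci held 68 and 354 counts in fibroblasts, 5.04-fold (3.88 to 6.64), and 267 and 264 in embryos, 1.03-fold (0.863 to 1.22). The 55 IAPEY3_LTR loci held 70 and 286 in fibroblasts, 3.96-fold (3.04 to 5.21), and 402 and 623 in embryos, 1.61-fold (1.42 to 1.83). The locus in Slc38a1 described below fell in embryos, and without it the embryo log2 ratio of IAPEY3_LTR went from 0.69 to 1.28. Only 10.4% of IAPEY2_LTR and 16.4% of IAPEY3_LTR loci reached 10 counts in the fibroblast pair, against 52.2% of IAPEY_LTR loci. In embryos the shares were 13%, 25.5% and 17.4%. In the embryos the 2 IAPEY2_LTR sums differed by less than counting error. The locus with the most counts, on chromosome 7 and described below, held 40.8% of the WT embryo sum and fell. Without it the IAPEY2_LTR embryo log2 ratio went from 0.04 to 0.42. The 64 intergenic IAPEY2_LTR loci had a ratio of 0.46 (0.15 to 0.77) in embryos and the 11 intronic ones −0.86 (−1.37 to −0.37). Scaled by the LTR counts of each library, the fibroblast log2 ratio was 1.01 for IAPEY2_LTR, from 2.33, and 0.66 for IAPEY3_LTR, from 1.98, so the latter was no longer above 1.

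Some loci of these names still rose from no WT count. The IAPEY3_LTR element at chr4:3409600-3415989 had 0 and 26 counts in fibroblasts, at least 8.39-fold higher, and 0 and 67 in embryos, at least 23.2-fold higher. The IAPEY3_LTR element in an intron of Pydc4, a pyrin-domain gene of the interferon-inducible cluster on chromosome 1, at chr1:175502629-175510769 and in the sense direction, had 0 and 3 counts in fibroblasts and 1 and 128 in embryos, a log2 ratio of 6.88 (4.55 to 12.37). It was read almost only in Lsh-/- embryos. The IAPEY2_LTR element with the most counts in Lsh-/- fibroblasts, at chr4:145046883-145050453, had 0 and 67 there and 1 and 0 in embryos.

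A pair of loci read in WT had ratios of opposite sign in the tissues, except under scaling by LTR counts, where both fibroblast ratios fell below 0 (−0.15 and −0.14). The IAPEY3_LTR element in an intron of Slc38a1, a neutral amino acid transporter, at chr15:96411071-96413798 and in the sense direction, had 28 and 65 counts in fibroblasts, a log2 ratio of 1.17 (0.51 to 1.86). In embryos it had 167 and 75, a ratio of −1.10 (−1.51 to −0.70). The intergenic IAPEY2_LTR element at chr7:31998448-32001781 had 12 and 28 counts in fibroblasts and 109 and 60 in embryos. Its log2 ratios were 1.17 (0.15 to 2.29) and −0.81 (−1.29 to −0.34).

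The IAPEY3_LTR element over an exon of Gm16899, at chr1:7339430-7345409, had 7 and 28 counts in fibroblasts, a log2 ratio of 1.93 (0.73 to 3.39), and 70 and 59 in embryos, −0.19 (−0.72 to 0.33). The IAPEY3_LTR element at chr4:15839544-15844149, which lies 238 bases from Decr1, a mitochondrial dienoyl-CoA reductase, had 2 and 10 in fibroblasts and 73 and 65 in embryos. Both were above 1 in fibroblasts, but not when scaled by LTR counts (0.63 and 0.93), and near 0 in embryos, where their WT counts were far higher. Antisense in an intron of Lcorl, at chr5:46206438-46214429, an IAPEY3_LTR element had 11 and 5 counts in fibroblasts, a log2 ratio of −1.16 (−3.06 to 0.46) that was −0.50 when scaled by all counts, and 20 and 38 in embryos. Antisense in Ghr, the growth hormone receptor gene, at chr15:3319880-3324076, an IAPEY2_LTR element had 12 and 7 in fibroblasts and 18 and 9 in embryos. The intervals of these 2 fibroblast ratios include 0.

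**Figure D3:**
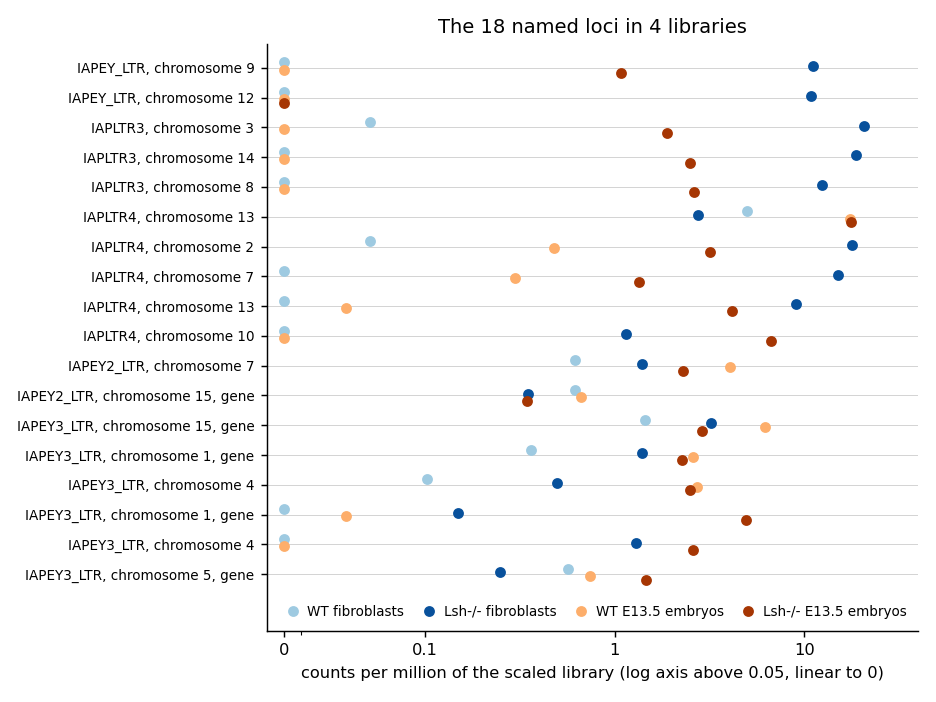
CPM (horizontal axis, logarithmic above 0.05 and linear down to 0) of the 18 loci named by rule, 1 row each, in the 4 libraries. The IAPEY_LTR and IAPLTR3 rows have both WT points at or near 0, the IAPLTR4 row with 470 and 460 counts in the embryos has all 4 points far from 0, and both IAPEY2_LTR rows have all 4 points above 0.

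Members in genes stood apart from those between genes. By the annotation 8 members overlapped an exon, 33 lay in an intron and 224 were intergenic, and 1 could not be placed. The intergenic loci held 149 and 5072 counts in fibroblasts, a log2 ratio of 5.04 (4.81 to 5.29), and the intronic ones 118 and 217, a ratio of 0.83 (0.50 to 1.17). In embryos the ratios were 1.39 (1.27 to 1.5) and 0.30 (0.09 to 0.50), and that of the loci over exons was −0.27 (−0.68 to 0.14). Genes held 47.0% of the WT and 5.09% of the Lsh-/- member counts in fibroblasts, and 35.2% and 19% in embryos.

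Within introns the 8 members in the sense direction of the gene had ratios of 1.72 (1.09 to 2.38) in fibroblasts and 0.67 (0.39 to 0.96) in embryos. The locus in Slc38a1 held 100% of the WT fibroblast and 97.1% of the WT embryo counts of this class, and the other 7 went from 0 to 30 counts in fibroblasts and from 5 to 189 in embryos, a ratio of 5.29 (4.05 to 6.93). The 23 antisense members had 0.38 (−0.02 to 0.80) and −0.14 (−0.45 to 0.16). The libraries were strand-specific, but the tables give 1 count a locus, so reads of the element and of the gene's pre-mRNA cannot be told apart. The 5 members below −1 in embryos were 3 in introns, namely those in Slc38a1, in Tcfcp2 (75 and 29 counts, −1.31) and in Pth2r (15 and 6, −1.25), and 2 between genes. The latter were an IAPEY_LTR element at chr5:104790398-104798645 (11 and 0 counts) and an IAPLTR4 element at chr14:74002611-74003611 (9 and 1 counts). These 5 were named because they are few, after their values were seen.

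Between the Lsh-/- libraries the names differed in opposite directions. IAPEY_LTR was at 109 CPM in Lsh-/- fibroblasts and 15.7 in Lsh-/- embryos, 6.92-fold higher in the first, and IAPLTR3 at 57.7 and 8.14, 7.09-fold higher. IAPLTR4 was at 67.6 and 48.1, and IAPEY2_LTR at 17.6 and 10.1. IAPEY3_LTR was the only name with more in the embryos, with 14.2 and 23.9, a log2 ratio of embryos over fibroblasts of 0.75 (0.55 to 0.96). The scaling was made within each tissue, so these levels across tissues rest on library sizes that were not tied to each other.

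By locus, 94 members had at least 10 counts over both Lsh-/- libraries. Of the 39 IAPEY_LTR loci among them, 31 were more than 2-fold higher in fibroblasts and 5 more than 2-fold higher in embryos, and 10 were at 0 in Lsh-/- embryos. Of the 15 IAPEY3_LTR loci, 2 were higher in fibroblasts and 7 in embryos by that measure. Of the 18 IAPLTR4 loci 9 and 5 were, and none was at 0 in Lsh-/- embryos. The same shares were not computed over all LTR loci. Across the 34 members with 10 or more counts in the pair of each tissue, 24 were above 1 in both, 6 in fibroblasts alone, 0 in embryos alone and 4 in neither. Of all 1156 LTR loci with as many counts, 605 (52.3%) were above 1 in both, 164 in fibroblasts alone, 41 in embryos alone and 346 in neither. Over these 34 loci, which share their libraries and their mappable sequence, Spearman's rho between the fibroblast and embryo log2 ratios was 0.66 and Pearson's r was 0.78.

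**Figure D4:**
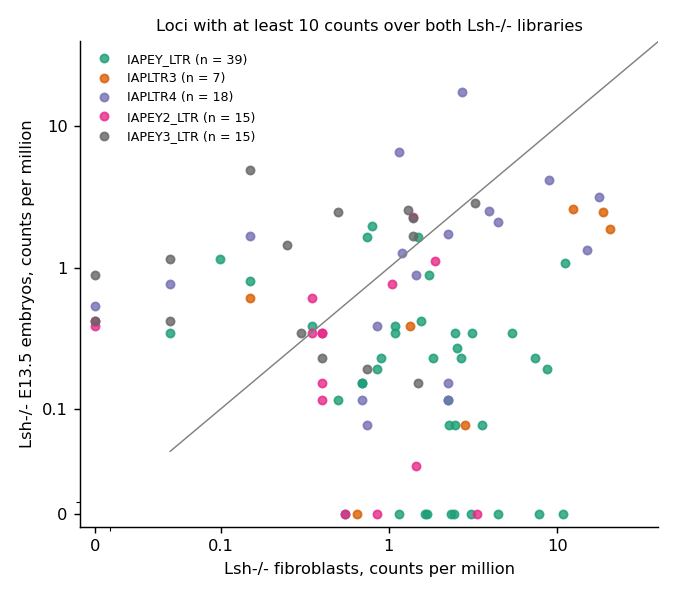
CPM in Lsh-/- fibroblasts (horizontal) and Lsh-/- embryos (vertical) of the 94 minor IAP loci with at least 10 counts over both, by name (both axes logarithmic above 0.05 and linear down to 0; the line marks equal values). Most IAPEY_LTR points lie below the line, 10 of them at 0 in the embryos, while 7 of the 15 IAPEY3_LTR points lie more than 2-fold above it.

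Copies of 1 name also differed by width. IAPEY_LTR held 59 short copies of 4033 to 5268 bases and 10 of 8142 to 8467 bases. Levels were compared per kilobase of unique sequence, meaning the 50-base windows that occur once in mm9. A read pair can span more than a single window, so mappable length may be understated where few windows are unique, which was not tested. The short copies stood at 1.80 CPM per unique kb in Lsh-/- fibroblasts and the long ones at 0.144. In IAPLTR3 the order was the reverse, with 2.24 for the 6 copies of 6000 bases or more and 0.309 for the 12 shorter ones.

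In Lsh-/- embryos the same order held for both names, with 0.244 and 0.0456 for short and long IAPEY_LTR copies and 0.0597 and 0.303 for short and long IAPLTR3 copies. IAPLTR4 copies of the 2 classes were closer, at 0.294 for the 19 short and 0.570 for the 28 long ones in fibroblasts, and 0.400 and 0.349 in embryos. The limit of 6000 bases was set after the widths had been seen, and the IAPLTR3 value rests on the 3 loci named above.

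**Figure D5:**
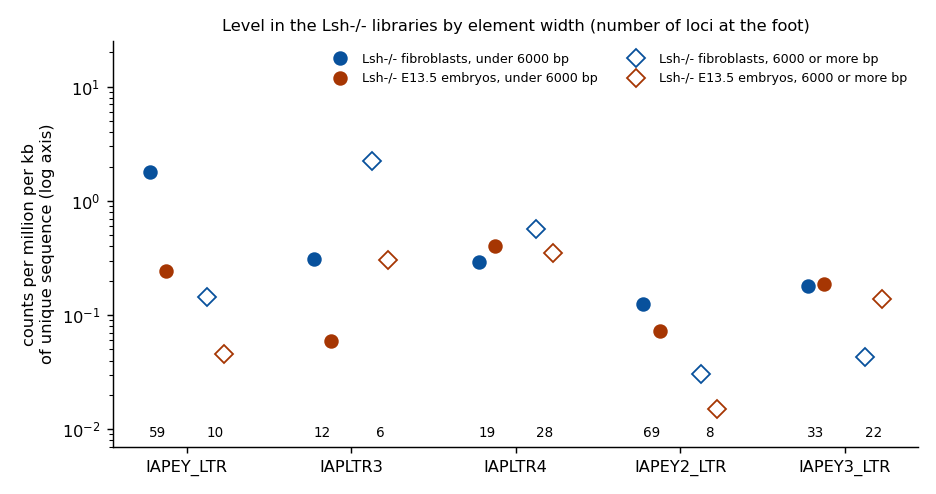
CPM per kb of unique sequence (log axis) in the 2 Lsh-/- libraries for copies under 6000 bases (filled circles) and of 6000 bases or more (open diamonds) of each name, with the number of copies at the foot. For IAPEY_LTR the short copies lie above the long ones (1.80 against 0.144 in fibroblasts), and for IAPLTR3 the long copies lie above the short ones (2.24 against 0.309).

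By the median the minor elements together held more unique sequence and less similar LTRs than the other IAP names, but IAPEY_LTR was close to the IAPLTR2 group in LTR identity. A median of 48.2% of the 50-base windows of the minor elements occurred once in the genome. The medians were 1.27% for IAPLTR1_Mm, 2.31% for IAPLTR1a_Mm and 11.9% for the IAPLTR2 group. Within the minor names the medians were 20.5% for IAPEY_LTR and between 51.0% and 54.9% for the other 4. The median identity of the LTRs of 1 element was 98.4% for IAPEY_LTR, 95.7% for IAPLTR3, 94.6% for IAPLTR4, 94.4% for IAPEY3_LTR and 92.3% for IAPEY2_LTR. It was 100% for IAPLTR1_Mm and 98.6% for the IAPLTR2 group. In sum IAPEY2_LTR held 168 kb of unique sequence, IAPEY3_LTR 153 kb and IAPEY_LTR 94.4 kb.

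Per unique kilobase the order of levels in Lsh-/- fibroblasts was 1.38 CPM for IAPLTR3, 1.15 for IAPEY_LTR, 0.507 for IAPLTR4, 0.105 for IAPEY2_LTR and 0.0932 for IAPEY3_LTR. The IAPLTR1_Mm loci stood at 39.1, IAPLTR1a_Mm at 10.4 and the IAPLTR2 group at 1.53. In Lsh-/- embryos the minor names ran from 0.0603 for IAPEY2_LTR to 0.359 for IAPLTR4, and IAPLTR1_Mm stood at 5.68. The summed ratio of IAPEY_LTR in fibroblasts, 96.1-fold (63.3 to 154), nonetheless overlapped that of IAPLTR1_Mm, 89.4-fold (82.4 to 97.3), as it did in embryos, 8.17-fold (6.11 to 11.1) and 11.8-fold (11 to 12.7). The 59 intergenic IAPEY_LTR loci alone stood at 14.6-fold (9.37 to 23.9) in embryos. The IAPLTR1_Mm value includes 152 loci in introns and 21 over exons, and no intergenic value was computed for that name. The IAPLTR2 group rose 13.3-fold (12.5 to 14.3) in fibroblasts and 2.59-fold (2.48 to 2.71) in embryos.

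Over the minor names together, no sequence measure examined went closely with the ratio. The log2 ratio and the LTR identity had a Spearman rho of 0.19 over 64 loci in fibroblasts and of −0.08 over 53 in embryos. With the ratio of observed to expected CpG the values were 0.17 (74 loci) and 0.03 (64 loci), and with the share of unique 50-base windows −0.21 and 0.20. Within single names of 10 loci or more the farthest from 0 were 0.56 for that share over 23 IAPLTR4 loci and −0.50 for LTR identity over 13 IAPEY3_LTR loci, both in embryos. These loci share libraries and depth, and the ratios of loci at 0 in WT mainly follow their Lsh-/- count.

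The intervals 10 kb to either side of the members hold counts of whatever lies there, other repeats included. In the paper, a number of upregulated intervals could be explained by overlap with a neighbouring repeat, often an IAP LTR. Such overlap was not tested for the intervals of the members. Intervals on the lower-coordinate side held 408 and 905 counts in fibroblasts, a log2 ratio of 1.10 (0.93 to 1.28), and 1748 and 1473 in embryos, a ratio of −0.19 (−0.29 to −0.09). On the higher-coordinate side the sums were 2039 and 3127, a ratio of 0.57 (0.49 to 0.65), and 4295 and 4035, a ratio of −0.04 (−0.10 to 0.03). These sums are set by a few intervals with many counts. By name the flank ratios in fibroblasts reached 4.30 (2.68 to 6.62) on the higher side of IAPEY_LTR, from 3 to 61 counts, 4.04 (2.41 to 6.37) on the lower side of IAPLTR3, from 3 to 51, and 3.91 (1.93 to 7.02) on the higher side of IAPLTR4, from 2 to 31. Beside IAPLTR3 the whole interval lay below the ratio of the elements, 7.13. Beside IAPEY_LTR and IAPLTR4 the intervals included the ratios of the elements, 6.59 and 3.54. A single interval beside an IAPEY2_LTR element at chr9:20685632-20689110, near Angptl6, held 1544 and 2012 of the higher-side counts in fibroblasts.

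Around the 69 members above 1 in fibroblasts, 16 of the lower-side and 14 of the higher-side intervals had any count in Lsh-/- fibroblasts. Those intervals held 106 and 333 counts on the lower side and 13 and 101 on the higher side, against 65 and 4881 in the elements themselves. The width of the intervals could not be settled, so these counts are not on a common length. Of the 266 members 11 lower-side and 12 higher-side intervals reached 10 counts in the fibroblast pair, and 8 on each side were above 1, beside 23.2% and 23.3% of those of all LTR loci. In embryos 6 of 16 and 3 of 12 were, beside 13.8% and 13.6%. The IAPLTR3 locus at chr14:20447568, the IAPLTR4 loci at chr10:78875652, chr7:50228031 and chr2:85798220 and both IAPEY_LTR loci on chromosomes 9 and 12 had no count in either interval in any library.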

How the data were processed

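Strand-specific paired-end libraries (dUTP method) were sequenced on an Illumina HiSeq. The authors mapped reads to mm9 with TopHat 1.4.0, kept unique reads and joined them to RepeatMasker entries, and the deposited tables hold raw counts per locus, 6 tables for each of the 4 libraries, with 1 library per group. Unique mapping lowers the counts of young, near-identical copies. A locus absent from a table was taken as 0. Starts count from 0 in the tables and are given from 1 here, since 80.7% of the 140 members on the plus strand then begin with TG, the usual first bases of an LTR, and 2.14% otherwise. The tables named upstream hold the lower-coordinate interval, since all 57 listed repeats lying inside such an interval held no more counts than it, and 6 with the sides exchanged. The paper describes intervals as wide as the elements, but their width could not be settled from the counts. A fixed width was assumed for this check and for the overlaps with exons of Hells and the markers.

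Libraries were scaled within each tissue by TMM (edgeR 4.0.16, R 4.3.3) over 294240 (fibroblasts) and 335158 (embryos) intervals beside LINE-1 loci. The TMM factors were 0.754 and 1.33 in WT and Lsh-/- fibroblasts and 1.00 and 0.996 in embryos. Log2 ratios used the default prior count of edgeR's glmFit and loci whose counts in both libraries of a tissue sum to 10 or more, and a rise or fall means past 1 or −1. A limit of 5 follows the study. Intervals are exact 95% ones and cover counting error only, and depth limits every locus near the minimum. With 1 library per group no test was made and no paired analysis was possible. Loci on unplaced parts of X and Y were left out with X and Y. Sequence features were computed in Python 3.11.15 with pysam 0.24.0 on mm9 and its GENCODE annotation, and the unit CPM was computed from the deposited counts. Calculations were tested on simulated data. The members, gene lists and naming rule were chosen with earlier results of these data known. Named loci are, per tissue, the 8 with the largest scaled count in the pair, the 3 largest among those with a ratio below 0 and the 3 largest among loci at 0 in WT, and other loci are said to be chosen later or are the top locus of a name.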

Additional observations from a re-analysis of the deposited data

Results flagged for a closer look

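The IAPEY3_LTR element in the intron of Slc38a1, at chr15:96411071-96413798, had a log2 ratio of 1.17 in fibroblasts and of −1.10 in embryos, and the 95% counting intervals lay on opposite sides of 0. The intergenic IAPEY2_LTR element at chr7:31998448-32001781 had ratios of 1.18 and −0.81, again with intervals on opposite sides of 0. With each library scaled by its own LTR counts the fibroblast ratios were −0.15 and −0.14, so the signs no longer differed. With 1 library per group the differences between the tissues were not tested.

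The 35 minor IAP loci on chromosomes X and Y and their unplaced parts, which entered no comparison, went from 6 to 147 counts in fibroblasts, a summed log2 ratio of 4.57 (95% interval 3.41 to 6.04). In embryos they held 163 and 173 counts, a ratio of 0.14 (−0.18 to 0.46).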

How the results depend on the processing

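Under the alternatives run, the summed ratios over all 266 loci and the medians kept their sign. The summed ratio of IAPEY2_LTR in embryos, 0.04, was −0.20 with the LTR totals, −0.05 without overlapping loci and 0.42 without the locus with the most counts. It lay within 1 of 0 throughout. The summed log2 ratio in fibroblasts, 4.20, was 2.88 with each LTR table's own total count as library size, 4.88 with the total over all 6 tables, 3.90 without loci that overlap another listed locus and 5.04 without loci in genes, an alternative added after the data had been seen. In embryos, 1.07 became 0.83 with the LTR table's own total, 0.96 without overlapping loci, 1.41 without the IAPLTR4 locus at chr13:12918063 and 1.39 without loci in genes. Of the 18 named loci, the fibroblast ratio of the IAPEY3_LTR element at chr15:96411071 turned from 1.17 to −0.15 and that of the IAPEY2_LTR element at chr7:31998448 from 1.17 to −0.14 with the LTR totals. No other of the 283 recomputed values turned a ratio whose interval lay off 0. The LTR totals hold the activated repeats themselves. The number of loci above 1 was 176 with all listed loci and 26 with at least 50 counts in fibroblasts, and 119 and 11 in embryos, since more or fewer loci enter. The median in fibroblasts was 7.27 with the LTR total, 4.91 with a prior count of 1, 4.07 over all listed loci and 9.0 with at least 50 counts, and the embryo median ran from 2.72 to 3.64. The loci below −1, 1 in fibroblasts and 5 in embryos, numbered 4 and 8 with the LTR total, 0 and 5 with all counts, 21 and 37 over all listed loci and 0 and 2 with at least 50 counts. With the loci on unplaced parts of X and Y, also added later, 70 of 75 loci were above 1 in fibroblasts and 40 of 66 in embryos. The higher-coordinate flank ratio in fibroblasts was 1.13 without the interval beside the IAPEY2_LTR locus on chromosome 9, against 0.57. The members in introns in the sense direction, without the one in Slc38a1 (also added later), went from 0.67 to 5.29 in embryos, and without the locus with the most counts the embryo ratio of IAPLTR3 went from 2.61 to 2.05. Leaving out a replicate was not possible with 1 library per group. No paired analysis was possible because each group holds 1 library. Depth limits 162 of the 266 members, which had under 10 counts in both pairs.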
